A study of Mus musculus with 17 samples.

Results

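The genes described here are 42 genes of DNA replication and cell division, set by a list of gene names. They were found through their Ensembl identifiers among the 55359 genes of the expression table, and they fall into 23 genes that act in S phase, when DNA is copied, and 19 that act in G2 and mitosis, when the copied chromosomes are separated. Their mRNA was measured by poly-A RNA sequencing in testes and forebrain of male mice on postnatal day 1, in 17 libraries. The question put to them was whether mice lacking osteocalcin, a hormone made by bone, carried different levels of these genes at birth. The mice were of the 129/SvEv background and the osteocalcin genes had been deleted by homologous recombination in embryonic stem cells. WT mice, labelled WT, had WT mothers and gave 2 testis and 3 forebrain libraries. Ocn+/− mice, labelled Osteocalcin Heterozygous, and Ocn−/− mice, labelled Osteocalcin KO, both had Ocn−/− mothers and gave 3 libraries of each organ. Against WT, the genotype of the pup, the genotype of its mother and its litter therefore cannot be told apart, whereas Ocn+/− and Ocn−/− mice share the genotype of the mother. The forebrain samples are labelled hippocampus, while the methods of the study describe a forebrain dissection that includes it.

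A cell commits to division when cyclin E and its kinase release E2F transcription factors from the retinoblastoma protein. E2F then switches on the genes for the enzymes that license origins, unwind DNA, copy it and supply its building blocks. Later in the cycle a second set, including cyclin B, the Aurora and Polo kinases and the motors and kinetochore proteins of the spindle, is switched on through other promoter elements and is taken away as mitosis ends. In the testis of a newborn mouse the dividing cells are mainly Sertoli cells and interstitial cells, since most germ cells rest at that age. In the newborn forebrain most neurons have left the cycle, and division is largely left to progenitors near the ventricles.

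Total expected counts ran from 7302401 to 8289015 in the 8 testis libraries and from 6518151 to 14621584 in the 9 forebrain libraries. One forebrain library, WT 3, had the lowest of these totals and stood apart from the others in its composition, with a normalization factor of 0.866 against 0.991 to 1.04 in the other 8. All 42 members passed the filter on low counts in both organs. Their counts ran from 61 to 4846 per library in testes and from 13 to 986 in forebrain. The osteocalcin genes themselves could not check the genotype labels, since Bglap held 0 to 5 counts and Bglap2 none in any library, WT included. The tissue labels were checked against defining markers. The summed level of 8 neuronal markers was 6299 to 7796 counts scaled to a common library size (CPM) in forebrain and 120.0 to 163 in testes, and that of 10 Sertoli cell markers was 1771 to 2688 in testes and 69.4 to 91.4 in forebrain. In these whole-organ samples fewer dividing cells and less of an mRNA per dividing cell cannot be told apart.

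The S phase and G2/M members differed in the letters of their promoters, and 3 promoters are shown because they carry the elements by which the 2 groups are known to be switched on. The window ran from 250 bases before to 50 bases after the start of the canonical transcript in GRCm39, and both strands were searched. The E2F element, spelled TTTGGCGC, TTTCCCGC, TTTGCCGC or TTTCGCGC, was found in 11 of 23 S phase promoters (47.8%), in 1 of 19 G2/M promoters (5.26%) and in 2.77% of 21627 protein-coding promoters. The CHR element of late cell cycle genes, spelled TTTGAA or TTCGAA, was found in 3 of 23 S phase promoters (13.0%), in 12 of 19 G2/M promoters (63.2%) and in 18.8% of all. The CCAAT box was present in 69.6% and 78.9% of the 2 groups and in 39.9% of all promoters. The 150 bases before the start are given 5′ to 3′ on the strand of the gene, for Mcm6 on the minus strand at chr1:128287453-128287602, for Cdk1 on the minus strand at chr10:69188769-69188918 and for Aurkb on the plus strand at chr11:68936317-68936466. Capitals mark the E2F element in Mcm6 and the CHR element and CCAAT boxes in Cdk1 and Aurkb. Cdk1 is also the 1 G2/M promoter with an E2F element, and Mcm6 also holds CCAAT boxes, and these are left in lower case.
Mcm6: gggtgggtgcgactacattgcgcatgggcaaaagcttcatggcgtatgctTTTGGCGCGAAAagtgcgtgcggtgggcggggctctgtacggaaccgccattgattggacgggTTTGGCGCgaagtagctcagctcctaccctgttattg
Cdk1: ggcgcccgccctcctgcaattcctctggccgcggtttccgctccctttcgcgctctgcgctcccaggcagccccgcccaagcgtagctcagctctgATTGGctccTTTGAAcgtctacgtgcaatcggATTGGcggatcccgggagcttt
Aurkb: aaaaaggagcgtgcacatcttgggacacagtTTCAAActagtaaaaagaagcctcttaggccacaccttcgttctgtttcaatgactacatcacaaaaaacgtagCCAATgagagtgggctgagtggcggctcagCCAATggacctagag
The first run of capitals in Mcm6 is a pair of E2F elements on opposite strands that share bases. In Cdk1 the CHR element shown lies next to a CCAAT box, and a further CCAAT box follows it. Cdk1 and Aurkb each also hold a CHR match after the start and a CCAAT box further upstream, both outside the bases printed. These matches describe the letters of the promoters and say nothing of binding in these samples.

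In WT mice both groups of genes were far higher in testes than in forebrain. In edgeR's quasi-likelihood test over both organs, 39 of the 42 members were called higher in WT testes, at a threshold of 0.05 on p-values adjusted by Benjamini and Hochberg, and none lower, where 36.9% of all 17800 genes tested were called higher and 34.2% lower (71.1% in all). The 19 G2/M members were all among them, with a median log2 fold change of 2.63, and the S phase members numbered 20 of 23, with a median of 1.99, against a median of 0.08 over all genes. Ccnb2, cyclin B2, differed most, with a log2 fold change of 3.29 ± 0.16 (SE). Bub1 and Cenpe, which act at kinetochores, followed at 3.07 ± 0.17 and 3.08 ± 0.20. The 3 members not called were Gins2 (0.01 ± 0.13), Rrm2 (0.18 ± 0.15) and Ccne1 (0.50 ± 0.26). Of the 50-base stretches of Gins2 transcripts, 70.3% also occur in its overlapping neighbour Gse1, and 36.0% of those of Rrm2 occur in other genes, so that the counts of both are uncertain.

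Per kilobase of transcript, the members spanned a wide range in WT testes. Pcna, the sliding clamp that holds polymerases on DNA, was highest at 87.5 ± 4.9 CPM per kb (SD, n = 2), followed by Top2a, the topoisomerase that untangles chromosomes, at 82.6 ± 1.5 and Ube2c, the ubiquitin-conjugating enzyme of the anaphase-promoting complex, at 74.8 ± 2.3. Ccne2 (2.98 ± 0.40) and Cdc6 (3.03 ± 0.44) were lowest and also did not differ beyond their spread. In WT forebrain Pcna was again highest at 44.1 ± 2.5 CPM per kb (n = 3), while the next in order were Mcm7 at 19.7 ± 1.5 and Rfc3 at 16.8 ± 1.2. The level of Pcna is uncertain, since 56.1% of its 50-base stretches occur in an overlapping antisense gene or a pseudogene and the library kit does not mark strand.

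**Figure D1:**
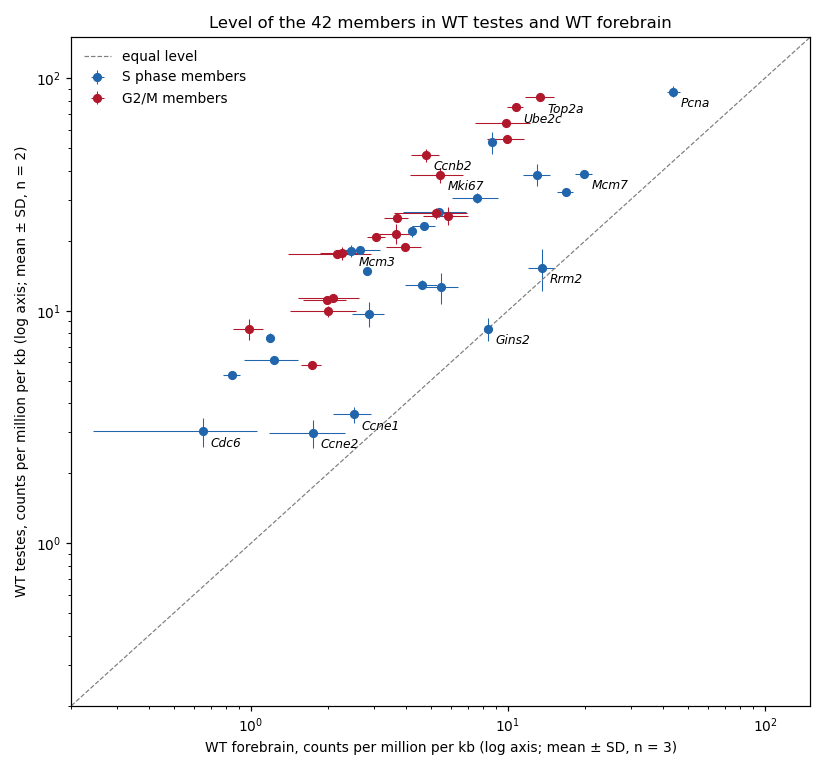
Level of each of the 42 members in WT testes (vertical, n = 2) against WT forebrain (horizontal, n = 3), as mean CPM per kilobase of canonical transcript with SD, on log axes. Blue points are S phase members, red points G2/M members, and the dashed line marks equal levels. All G2/M members lie above the line, while Gins2 and Rrm2 lie on or near it.

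In testes of Ocn+/− mice 12 of the 42 members were called higher than in WT and 1 was called lower, against 3.89% of all 16361 genes tested called higher and 4.36% called lower (8.25% in all). In testes of Ocn−/− mice 10 members were called higher and none lower, against 2.54% and 3.09% of all genes (5.64% in all). At an unadjusted p under 0.05 there were 21 members in Ocn+/− and 26 in Ocn−/− testes, where 25.9% and 23% of all genes passed. These 2 comparisons share the 2 WT libraries and are given side by side. The called increases lay between 1.41-fold and 1.95-fold in Ocn+/− testes and between 1.42-fold and 1.94-fold in Ocn−/− testes. On the log2 scale the median change of S phase members was 0.42 for Ocn+/− against 0.40 for Ocn−/− mice, and G2/M members had medians of 0.20 and 0.40, where the medians over all genes were 0.01 and -0.01. The estimate was above 0 for 38 of the 42 members in Ocn+/− and for 40 in Ocn−/− testes.

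**Figure D2:**
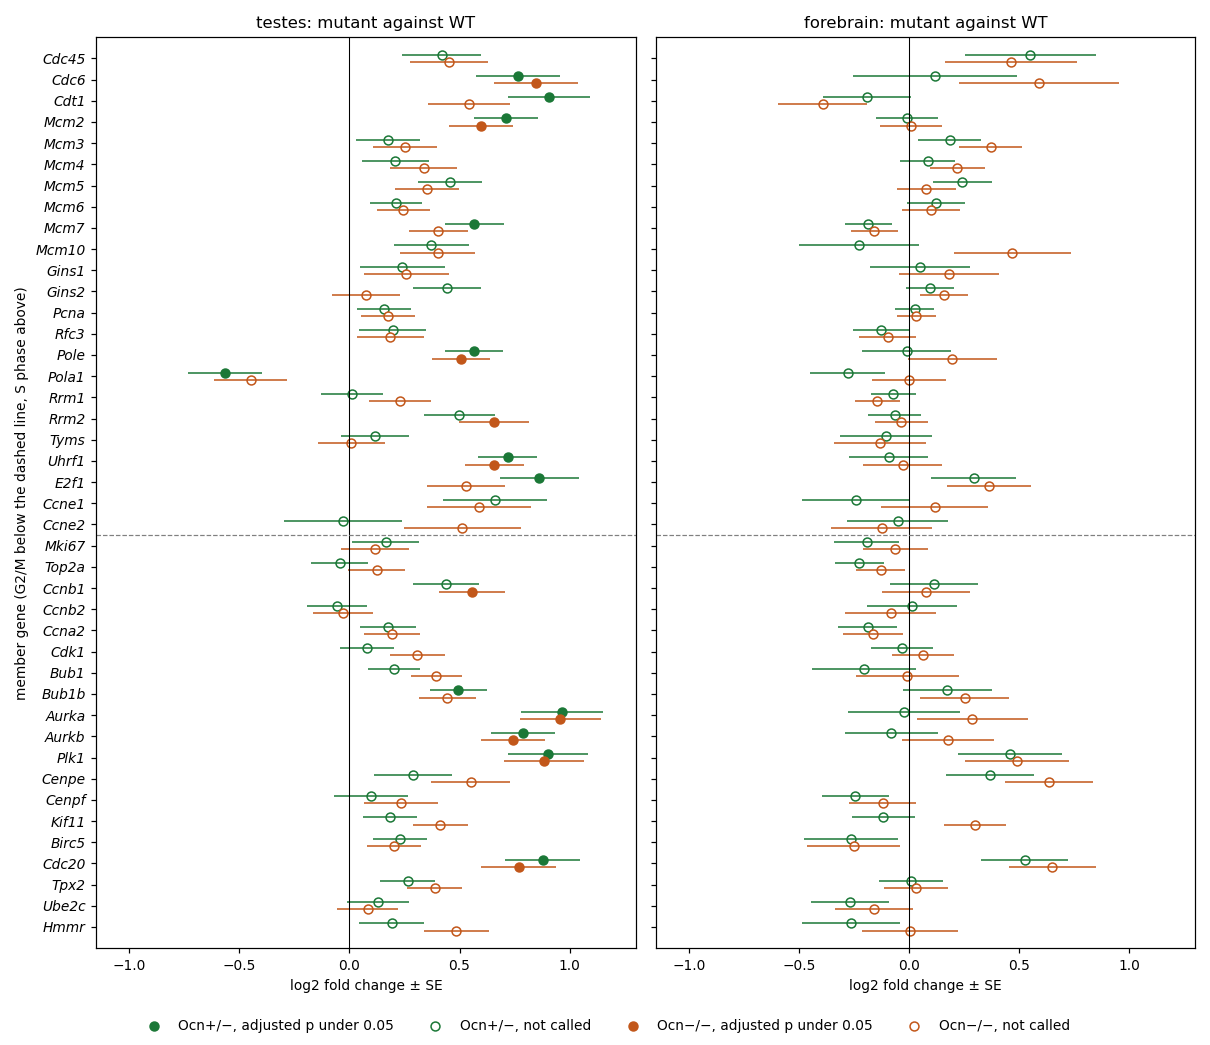
log2 fold change with SE of each member in Ocn+/− (green) and Ocn−/− (orange) mice against WT, in testes on the left and forebrain on the right. Filled points passed an adjusted p of 0.05 and open points did not. Filled points appear in testes, 13 for Ocn+/− and 10 for Ocn−/−, and none in forebrain.

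Among the 12 genes that license origins and unwind DNA, 4 rose in Ocn+/− testes (Cdc6, Cdt1, Mcm2 and Mcm7) and 2 in Ocn−/− testes (Cdc6 and Mcm2), and all 12 estimates were above 0 in both. Mcm2, a subunit of the replicative helicase (ENSMUSG00000002870, GRCm39 chr6:88860452-88875762), stood at 120.2 and 112 CPM in the 2 WT testis libraries. It stood at 202, 155 and 213 CPM in the Ocn+/− libraries and at 171, 159.7 and 196 in the Ocn−/− libraries. Each mutant library was thus above both WT libraries. Mcm2 rose by 0.71 ± 0.15 on the log2 scale in Ocn+/− testes (adjusted p = 0.0097) and by 0.60 ± 0.15 in Ocn−/− testes (adjusted p = 0.025). Cdt1, which loads that helicase onto origins (chr8:123294703-123300293), stood at 33.3 and 31.2 CPM in WT, at 71.1, 48.3 and 62.0 in Ocn+/− and at 53.2, 36.8 and 50.8 in Ocn−/− testes. Here too every mutant library was above both WT libraries, although Ocn−/− 2 was close to them, and the 2 mutant groups overlapped. Cdt1 rose by 0.91 ± 0.19 on the log2 scale in Ocn+/− (adjusted p = 0.011), while the 0.54 ± 0.19 in Ocn−/− testes was not called (adjusted p = 0.094). Cdc6, which recruits Cdt1 to origins, rose by 0.77 ± 0.19 in Ocn+/− and 0.85 ± 0.19 in Ocn−/− (adjusted p = 0.025 and 0.017). Mcm7, another helicase subunit, stood at 132 and 126 CPM in WT, at 217, 165 and 192 in Ocn+/− and at 158, 175 and 179.7 in Ocn−/− testes. The difference of Mcm7 was 0.57 ± 0.13 on the log2 scale in Ocn+/− (adjusted p = 0.018) and 0.40 ± 0.13 in Ocn−/− (adjusted p = 0.081). Of the 50-base stretches of Mcm7, 44.0% also occur in other genes, the overlapping Cops6 and Ap4m1 among them.

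Of the 4 genes of the fork, Pole rose, Pola1 fell and Pcna and Rfc3 were not called. Pole, the catalytic subunit of the leading-strand polymerase, rose by 0.57 ± 0.13 in Ocn+/− and 0.51 ± 0.13 in Ocn−/− testes on the log2 scale (adjusted p = 0.017 and 0.033). Pola1, the catalytic subunit of the polymerase that starts each new strand, was the 1 member called lower and was named after its values were seen. It fell by 0.56 on the log2 scale in Ocn+/− testes (SE 0.17, adjusted p = 0.049), from 90.8 and 89.3 CPM in WT to 64.4, 52.7 and 65.7, and its -0.45 ± 0.17 in Ocn−/− testes was not called (adjusted p = 0.12). Pcna stood at 156 and 143 CPM in WT, at 167, 154 and 180.0 in Ocn+/− and at 164, 183 and 158 in Ocn−/− testes. Its groups overlapped, and neither difference was called (0.16 ± 0.12 and 0.17 ± 0.12, adjusted p = 0.44 and 0.42). Of the 3 genes that supply deoxynucleotides, Rrm2, the inducible subunit of ribonucleotide reductase, stood at 51.7 and 38.4 CPM in WT, at 68.4, 53 and 69.6 in Ocn+/− and at 74.7, 71.6 and 66.7 in Ocn−/− testes. Its 0.66 ± 0.16 in Ocn−/− testes was called (adjusted p = 0.025) and its 0.50 ± 0.16 in Ocn+/− testes was not (adjusted p = 0.062). Rrm1, the partner subunit, and Tyms, thymidylate synthase, were not called in either.

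Uhrf1, which keeps DNA methylation in place as DNA is copied (ENSMUSG00000001228, chr17:56610275-56630489), stood at 112 and 105 CPM in WT testes. It stood at 198, 149.9 and 187 CPM in Ocn+/− and at 179.7, 167 and 166 in Ocn−/− testes, with every mutant library above both WT libraries. Uhrf1 rose by 0.72 ± 0.13 and 0.66 ± 0.13 on the log2 scale (adjusted p = 0.0056 and 0.0095). E2f1, the transcription factor that drives entry into S phase, stood at 27.3 and 32.4 CPM in WT, at 64.6, 42.8 and 55.8 in Ocn+/− and at 41.8, 39.6 and 48.0 in Ocn−/− testes. It rose by 0.86 ± 0.18 in Ocn+/− (adjusted p = 0.010), and its 0.53 ± 0.18 in Ocn−/− testes was not called (adjusted p = 0.088). The E-type cyclins Ccne1 and Ccne2 were not called in either comparison.

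Of the 19 G2/M genes, Aurka, Aurkb, Plk1 and Cdc20 rose in both mutant testes, Bub1b in Ocn+/− and Ccnb1 in Ocn−/− testes. Aurka, a kinase of the spindle poles, stood at 21.5 and 20.3 CPM in WT, at 49.0, 31.8 and 41.8 in Ocn+/− and at 41.8, 37.2 and 42.7 in Ocn−/− testes. Aurka rose by 0.97 ± 0.18 and 0.96 ± 0.18 on the log2 scale (adjusted p = 0.0063 and 0.0069), the largest estimates of any member in the 2 comparisons, and 37.8% of its 50-base stretches also occur in other genes, mainly its neighbours Fam210b and Cstf1. Aurkb, the kinase of the chromosomal passenger complex (ENSMUSG00000020897, chr11:68936467-68944764), shares no such stretch. It stood at 42 and 41.3 CPM in WT, at 72.0, 71.3 and 72.5 in Ocn+/− and at 80.1, 58.2 and 70.5 in Ocn−/− testes, so that no library of a mutant came near the WT values. The log2 fold changes of Aurkb were 0.79 ± 0.15 and 0.74 ± 0.15 (adjusted p = 0.0054 and 0.0077). Plk1, the Polo kinase that drives mitotic entry, stood at 28.4 and 28.6 CPM in WT, at 63.9, 39.1 and 56.8 in Ocn+/− and at 53.8, 52.9 and 51.2 in Ocn−/− testes. It rose by 0.90 ± 0.18 and 0.88 ± 0.18 (adjusted p = 0.0086 and 0.010). Cdc20, which activates the anaphase-promoting complex, stood at 41.7 and 47.7 CPM in WT, at 98.6, 62.8 and 85.3 in Ocn+/− and at 77.4, 69.7 and 81.4 in Ocn−/− testes. For Cdc20 the increases were 0.88 ± 0.17 and 0.77 ± 0.17 (adjusted p = 0.0071 and 0.016). Bub1b, a kinase-like protein of the spindle checkpoint, rose in Ocn+/− testes by 0.50 ± 0.13 (adjusted p = 0.0296), and its 0.44 ± 0.13 in Ocn−/− testes lay just outside the threshold (adjusted p = 0.054).

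Mki67, Top2a and Cdk1 were not called in either mutant. Mki67, which coats mitotic chromosomes, stood at 421 and 466 CPM in WT, at 539, 435 and 515 in Ocn+/− and at 447, 589.5 and 405 in Ocn−/− testes. The 3 groups overlapped, and the log2 fold changes were 0.16 ± 0.15 and 0.12 ± 0.15 (adjusted p = 0.53 and 0.69). Top2a stood at 495 and 480.5 CPM in WT, at 494, 436 and 489 in Ocn+/− and at 492, 618 and 485 in Ocn−/− testes, with log2 fold changes of -0.04 ± 0.13 and 0.12 ± 0.13 (adjusted p = 0.87 and 0.61). Of the Ocn−/− testes, number 2 held the highest value of both genes. Cdk1, the kinase that cyclin B activates, stood at 122 and 126 CPM in WT, at 115, 143 and 134 in Ocn+/− and at 149.6, 146 and 164 in Ocn−/− testes. The estimates for Cdk1, 0.08 ± 0.12 and 0.31 ± 0.12, were not called (adjusted p = 0.73 and 0.15). Ccnb1, cyclin B1, stood at 72.2 and 77.5 CPM in WT, at 106, 81.1 and 117 in Ocn+/− and at 98.0, 118 and 114 in Ocn−/− testes. It rose in Ocn−/− testes by 0.56 ± 0.15 (adjusted p = 0.0395), while its 0.44 ± 0.15 in Ocn+/− was not called (adjusted p = 0.077), and 41.5% of its 50-base stretches also occur in pseudogenes. Whether the changes of called and uncalled members differ from each other was not tested.

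**Figure D3:**
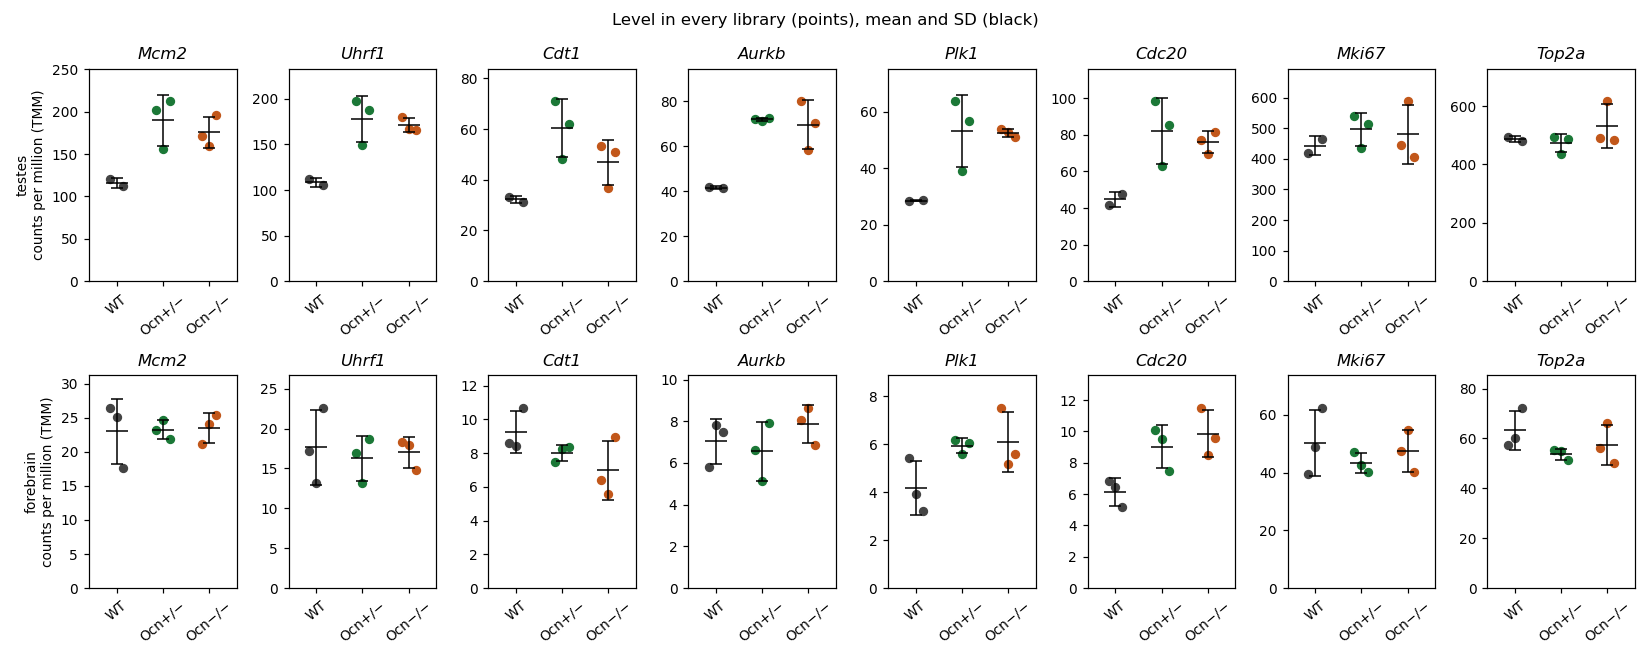
Level in TMM-normalised CPM of 8 members in every library (points), with the mean and SD of each group (black), in testes (top) and forebrain (bottom); each vertical axis starts at 0. In testes all mutant points of Mcm2, Uhrf1, Cdt1, Aurkb, Plk1 and Cdc20 lie above the WT points, whereas those of Mki67 and Top2a overlap them.

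Counted over libraries, 24 of the 42 members had every mutant testis above both WT testes, 13 of them S phase and 11 G2/M, where 12.5% of all genes tested did. Only Pola1 had every mutant testis below both WT testes, where 13.6% of all genes did. The summed level of the 23 S phase members was 1827 and 1702 CPM in WT testes, 2420, 1911 and 2358 in Ocn+/− and 2181, 2287 and 2178 in Ocn−/− testes. For the 19 G2/M members it was 2312 and 2323 CPM in WT, 2820, 2382 and 2764 in Ocn+/− and 2681, 3101 and 2638 in Ocn−/− testes. Both sums were thus above WT in each mutant library, with Ocn+/− 2 the nearest to WT. The ratio of the means was 1.26 in both mutants for S phase members, and 1.15 in Ocn+/− and 1.21 in Ocn−/− for G2/M members. Scaled by library size alone, these ratios were 1.33 and 1.33, and 1.21 and 1.28.

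**Figure D4:**
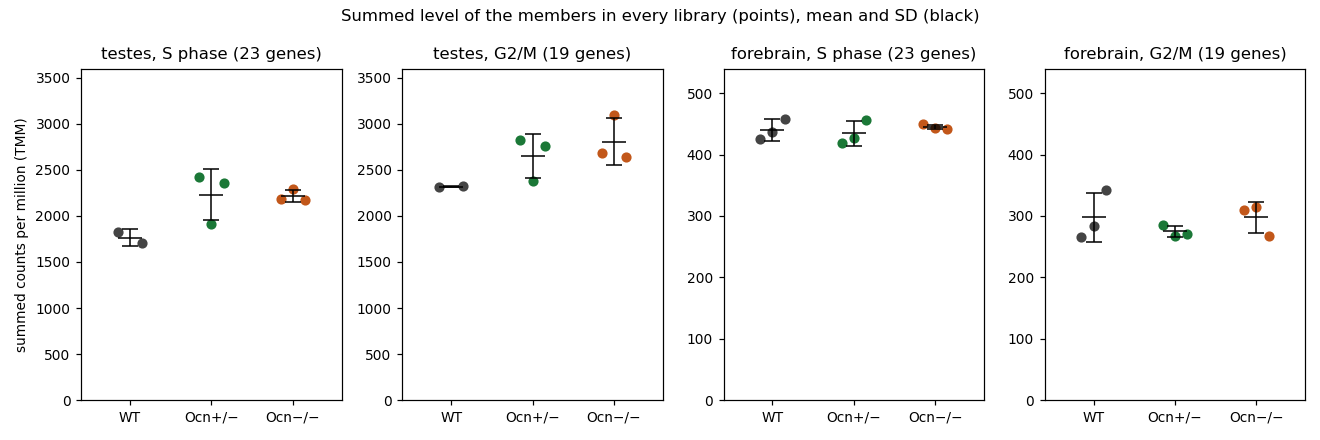
Summed TMM-normalised CPM of the S phase and the G2/M members in every library (points), with mean and SD of each group (black), in testes and forebrain; vertical axes start at 0. In testes the mutant libraries lie above the WT libraries in both sums, while in forebrain the 3 groups overlap.

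The calls in testes rest on both WT libraries. Without WT 1, no member was called in Ocn+/− testes and 1 (Rrm2) in Ocn−/− testes, and without WT 2 none was called in either. The log2 fold changes of the 12 genes called higher in Ocn+/− then ranged from 0.44 to 1.01 without WT 1 and from 0.53 to 1.01 without WT 2, and the calls over all genes fell from 1350 to 131 and 118. In Ocn−/− testes those of the 10 genes ranged from 0.51 to 1.01 and from 0.48 to 1.02, and the calls over all genes fell from 922 to 231 and 85. Without Ocn+/− 1 or Ocn+/− 3 the Ocn+/− count was 8 each time, with 352 and 459 calls over all genes, and without Ocn−/− 1 the Ocn−/− count was 5, with 409. Without Ocn+/− 2, which enters the shared estimate of spread, the Ocn−/− count was 16, with 1185.

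The GC content of a transcript moved with the change in testes. Over all genes tested, the median log2 fold change in Ocn+/− testes ran from -0.27 for transcripts under 42% GC to 0.34 for those of 58% GC or more, and in Ocn−/− testes from -0.08 to 0.09. The 12 members called higher in Ocn+/− testes had a GC content of 49.4% to 58.8%, with a median of 53.5%, against a median of 47.2% for the 29 members not called, and Pola1 had 41.7%. With an offset in each library that follows GC content, an alternative added after the data were seen, the medians by GC class lay between 0.01 and 0.03 in Ocn+/− testes and between 0.03 and 0.05 in Ocn−/− testes. Under this offset 15 members were called higher in Ocn+/− testes and 16 in Ocn−/− testes, none lower, against 2.16% and 5.1% of all genes called higher and 2.6% and 3.47% called lower (4.76% and 8.58% in all). These included 12 and 10 of those called without it, and Pola1 was no longer called. The G2/M members then had medians of 0.43 and 0.50 and the S phase members of 0.44 and 0.45, in Ocn+/− and Ocn−/− mice respectively. Members of high GC content had smaller estimates in Ocn+/− testes under the offset, with the median of the 5 members between 54% and 58% GC going from 0.86 to 0.59. Cdt1 went from 0.91 to 0.61, E2f1 from 0.86 to 0.59 and Mcm2 from 0.71 to 0.51 on the log2 scale, and each was still called. With the offset and the replicate number as a block together these were 0.59, 0.56 and 0.44, and of the 3 only Cdt1 was called (adjusted p = 0.042, 0.11 and 0.077).

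**Figure D5:**
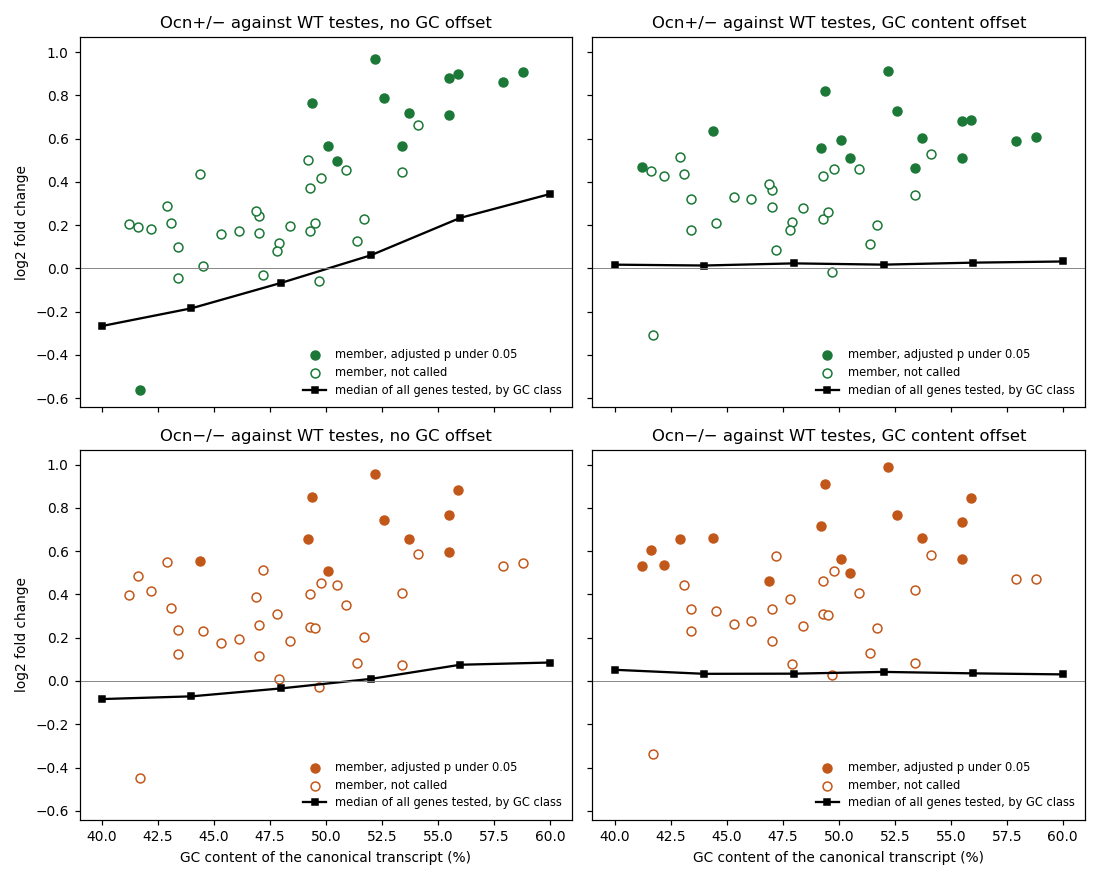
log2 fold change of the members in testes against the GC content of their canonical transcript, for Ocn+/− (top) and Ocn−/− (bottom), without (left) and with (right) an offset that follows GC content; filled points passed an adjusted p of 0.05. The black line is the median over all genes tested in each GC class, drawn at the middle of the class (the open-ended classes at 40% and 60%), and rises from -0.27 to 0.34 in Ocn+/− testes without the offset.

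Between Ocn−/− and Ocn+/− testes, whose mothers had the same genotype, no member was called by edgeR's quasi-likelihood test or by DESeq2. Over all 16361 genes edgeR called 0 and DESeq2 76, so that the count of 0 is not particular to the members. At an unadjusted p under 0.05 there were 5 members, where 11.5% of all genes passed that mark, and the smallest adjusted p was 0.34, for Gins2. The median log2 fold change was 0.02 for S phase and 0.03 for G2/M members, and single estimates ran from -0.37 to 0.54.

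In the forebrain no member was called in either mutant by edgeR's quasi-likelihood test or by DESeq2, where 3.89% of all 16076 genes were called in Ocn+/− (1.21% higher and 2.68% lower) and 4.85% in Ocn−/− mice (1.8% higher and 3.05% lower). At an unadjusted p under 0.05 there were 1 and 4 members, where 20.3% and 21.7% of all genes passed. The medians were -0.01 and 0.08 for S phase and -0.08 and 0.03 for G2/M members. The summed level of the S phase members was 425, 436 and 459 CPM in WT, 419, 427 and 457 in Ocn+/− and 449, 444 and 442 in Ocn−/− forebrain, and the groups overlapped. For the G2/M members it was 266, 283 and 343 CPM in WT, 285, 268 and 271 in Ocn+/− and 310.1, 315 and 268 in Ocn−/− forebrain, with WT 3 the highest. Without WT 3 the ratio of the means for G2/M members was 1.00 in Ocn+/− and 1.08 in Ocn−/−, against 0.924 and 1.00 with it. Ocn−/− was not called different from Ocn+/− forebrain for any member by edgeR or DESeq2, with 2 members at an unadjusted p under 0.05, where 3.2% of all genes passed and 1 gene of 16076, or 0.00622%, was called, as higher.

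Cdc20 and Cenpe came nearest to a call in the forebrain. Cdc20 stood at 6.86, 6.45 and 5.16 CPM in WT, at 10.1, 9.53 and 7.46 in Ocn+/− and at 11.5, 8.51 and 9.56 in Ocn−/− forebrain, and every mutant library was above every WT library. Its log2 fold changes were 0.53 ± 0.20 and 0.65 ± 0.20 (adjusted p = 0.14 and 0.060). Cenpe, a motor protein of the kinetochore, stood at 7.55, 5.99 and 7.47 CPM in WT, at 9.60, 10.1 and 7.46 in Ocn+/− and at 13.5, 9.91 and 9.33 in Ocn−/− forebrain. Its 0.64 ± 0.20 in Ocn−/− was not called (adjusted p = 0.067), but was under the GC content offset (0.67, adjusted p = 0.039), where 5.92% of all genes were called, 2.59% higher and 3.33% lower. Plk1 stood at 5.41, 3.92 and 3.20 CPM in WT, at 6.15, 5.58 and 6.05 in Ocn+/− and at 7.51, 5.16 and 5.57 in Ocn−/− forebrain, and was not called. Next after Cdc20 and Cenpe, and ahead of Plk1, were Mcm3, a helicase subunit, and Kif11, the motor that pushes the spindle poles apart. Mcm3 stood at 10.5, 13.0 and 12.5 CPM in WT, at 13.6, 13.5 and 13.5 in Ocn+/− and at 15.7, 15.1 and 15.4 in Ocn−/− forebrain, and the groups did not overlap (0.18 ± 0.14 and 0.37 ± 0.14, adjusted p = 0.50 and 0.13). Kif11 stood at 12.5, 13.5 and 14.6 CPM in WT, at 12.9, 12.5 and 11.8 in Ocn+/− and at 16, 18.2 and 15.4 in Ocn−/− forebrain, where the Ocn−/− libraries alone lay above WT (0.30 ± 0.14, adjusted p = 0.22). Of all members, 3 had every mutant forebrain above every WT forebrain (Cdc20, Mcm3 and Gins2), where 6.85% of all genes did, and none had them all below, where 8.57% did.

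Mcm2, Uhrf1 and Mki67 showed no separation of the genotypes in the forebrain. Mcm2 stood at 26.5, 25.1 and 17.6 CPM in WT, at 23.3, 24.7 and 21.8 in Ocn+/− and at 21.2, 24.0 and 25.4 in Ocn−/− forebrain. Uhrf1 stood at 17.2, 13.1 and 22.6 CPM in WT, at 16.9, 13.2 and 18.7 in Ocn+/− and at 18.4, 18 and 14.8 in Ocn−/− forebrain. Mki67 stood at 39.5, 48.7 and 62.4 CPM in WT, at 47.2, 42.7 and 40.3 in Ocn+/− and at 47.4, 54.7 and 40.2 in Ocn−/− forebrain. In all 3 genes the groups overlapped, and WT 3 held the lowest value of the first and the highest of the other two. Top2a stood at 57.4, 60.02 and 72.2 CPM in WT, at 55.2, 54.8 and 51.2 in Ocn+/− and at 56.1, 66.0 and 50.2 in Ocn−/− forebrain. Pcna stood at 59.0, 64.6 and 57.5 CPM in WT, at 59.9, 63.5 and 61.3 in Ocn+/− and at 61.1, 61.7 and 62.7 in Ocn−/− forebrain. For Pcna the values of both mutants overlapped those of WT. For Top2a those of Ocn−/− did, while the Ocn+/− values all lay below WT, a difference that was not called (-0.23 ± 0.11, adjusted p = 0.26). WT 3 was the highest for Top2a and the lowest for Pcna. Cdk1 stood at 14.6, 13.0 and 16.01 CPM in WT, at 13.3, 13.8 and 15.5 in Ocn+/− and at 15.2, 15.2 and 14.98 in Ocn−/− forebrain. Ccnb1 stood at 8.01, 12.6 and 15.5 CPM in WT, at 10.7, 14.6 and 12.6 in Ocn+/− and at 11.9, 13.1 and 11.8 in Ocn−/− forebrain. E2f1 stood at 8.24, 6.91 and 6.23 CPM in WT, at 7.37, 9.45 and 9.81 in Ocn+/− and at 7.99, 9.38 and 10.5 in Ocn−/− forebrain. These 3 genes did not separate the mutants from WT either.

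Whether the mutants differed from WT more in testes than in forebrain was tested directly, as the mean change of the 2 mutants in testes minus that in forebrain. For 3 of the 42 members this difference was called, where 1.24% of all 17800 genes were called in that direction and 1.71% in the other (2.96% in all). Cdt1 gave a difference of 1.00 ± 0.25 on the log2 scale (adjusted p = 0.028). In forebrain Cdt1 stood at 8.62, 8.41 and 10.7 CPM in WT, at 7.44, 8.21 and 8.33 in Ocn+/− and at 6.39, 5.56 and 8.96 in Ocn−/− mice. Mcm7 gave 0.65 ± 0.14 (adjusted p = 0.016), and stood in forebrain at 48.4, 56.3 and 53.5 CPM in WT, at 41.3, 46.8 and 50.8 in Ocn+/− and at 46.8, 43.9 and 50.9 in Ocn−/− mice. Uhrf1 gave 0.73 ± 0.20 (adjusted p = 0.049). Mcm2 (0.64 ± 0.18, adjusted p = 0.050), Rrm2 (0.62 ± 0.18, adjusted p = 0.054) and Aurkb (0.69 ± 0.22, adjusted p = 0.083) were next and were not called. In forebrain Rrm2 stood at 28.9, 31.3 and 36.3 CPM in WT, at 27.5, 30.4 and 33.7 in Ocn+/− and at 33.1, 29.6 and 30.9 in Ocn−/− mice, and its groups overlapped. Aurkb stood there at 5.80, 7.83 and 7.47 CPM in WT, at 6.63, 5.11 and 7.93 in Ocn+/− and at 8.07, 8.64 and 6.85 in Ocn−/− mice, and overlapped as well. The median difference was 0.25 for S phase and 0.31 for G2/M members, and -0.01 over all genes. No member was called without WT testis 1 or without WT testis 2, and without forebrain WT 1 the count was 1 (Mcm7). It was 2 without forebrain WT 3 (Mcm2 and Mcm7), 6 without testis Ocn−/− 2 and 5 without testis Ocn+/− 2. The calls over all genes, 526 with every library, were 129 and 93 without WT testis 1 and 2, and 276, 274, 1070 and 738 in the other 4 cases in the order given.

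Other genes of the same processes were read alongside, from lists chosen for their known roles but with earlier results of these data known. The shares of all genes called, given above, were for testes 3.89% higher and 4.36% lower with Ocn+/− and 2.54% and 3.09% with Ocn−/−, and for forebrain 1.21% and 2.68%, and 1.8% and 3.05%. Of 43 further replication genes, 9 rose in Ocn+/− and 7 in Ocn−/− testes, with none lower and medians of 0.28 and 0.33. Timeless, which protects stalled forks, rose by 0.87 ± 0.14 and 0.94 ± 0.14 (adjusted p = 0.0021 and 0.0010). Wdhd1, which tethers the polymerase that starts new strands, rose by 0.72 ± 0.15 and 0.94 ± 0.15 (adjusted p = 0.011 and 0.0022). Of 54 further mitotic genes, 11 and 9 rose, again with none lower and medians of 0.23 and 0.27. Kif20a, a motor of cytokinesis, rose by 0.76 ± 0.12 and 0.70 ± 0.12 (adjusted p = 0.0023 and 0.0036). Gtse1, which binds microtubules in G2 and mitosis, rose by 1.24 ± 0.22 and 1.03 ± 0.22 (adjusted p = 0.0042 and 0.012), and Troap by 1.45 ± 0.24 and 1.28 ± 0.24 (adjusted p = 0.0031 and 0.0067). In forebrain 1 of the 43 replication genes was called, Orc4 of the origin recognition complex, which fell by 0.45 on the log2 scale in Ocn−/− mice (adjusted p = 0.029). Of the 54 mitotic genes 2 were called in Ocn−/− forebrain, Kif20a higher by 0.89 ± 0.23 (adjusted p = 0.028) and Hmgb2, a chromatin protein, lower (-0.67 ± 0.16, adjusted p = 0.021). Without forebrain WT 3 none of these 3 was called (adjusted p = 0.15, 0.071 and 0.11), with 189 calls over all genes against 780.

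Of 21 genes of entry into the cycle, 2 rose in Ocn+/− testes and 4 in Ocn−/− testes, and none was lower. Cdk2, the kinase of cyclins E and A, rose by 0.55 ± 0.13 and 0.60 ± 0.13 (adjusted p = 0.021 and 0.017). Ccnd2, cyclin D2, rose in Ocn−/− testes by 0.47 ± 0.13 (adjusted p = 0.044) and fell in Ocn+/− forebrain by 0.54 on the log2 scale (adjusted p = 0.022). Of 9 inhibitors of cyclin-dependent kinases, Wee1, which holds Cdk1 inactive, was the 1 that rose in testes, by 0.62 ± 0.14 and 0.86 ± 0.14 (adjusted p = 0.014 and 0.0022). In the forebrain 2 of the 8 inhibitors tested were lower in both mutants. Cdkn1c, p57, had log2 fold changes of -0.66 ± 0.11 in Ocn+/− and -0.73 ± 0.11 in Ocn−/− (adjusted p = 0.0026 and 0.0011), and Cdkn1b, p27, had -0.39 ± 0.10 and -0.44 ± 0.10 (adjusted p = 0.034 and 0.016). The summed level of the inhibitors was highest in WT 3, at 317 CPM against 252 and 266 in the other WT forebrains. Without WT 3 Cdkn1c was still called in both mutants (-0.55 and -0.63, adjusted p = 0.022 and 0.0093), while Cdkn1b (adjusted p = 0.18 and 0.11) and Ccnd2 (adjusted p = 0.053) were not. Of 13 targets of p53, Phlda3 rose in both mutant testes (1.14 ± 0.25 and 1.19 ± 0.24) while Btg2 (-0.81 ± 0.17 and -0.70 ± 0.16) and Trp53inp1 (-0.93 ± 0.19 and -0.89 ± 0.19) fell, with adjusted p between 0.0091 and 0.021. In forebrain 1 of the 13 was called, Zmat3, an RNA-binding protein, which was higher in Ocn−/− mice by 0.52 ± 0.15 (adjusted p = 0.045) and by 0.66 ± 0.15 without WT 3 (adjusted p = 0.043).

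Markers of several cell types moved with genotype in testes beside these genes. The summed level of 6 endothelial markers was 539 to 552 CPM in WT, 339.7 to 403 in Ocn+/− and 321 to 362 in Ocn−/− testes, and 3 and 5 of the 6 were called lower. That of 7 Leydig cell markers was 1873 to 1985 CPM in WT, 910.3 to 1472 in Ocn+/− and 928 to 1368 in Ocn−/− testes, and 1 of them, the luteinizing hormone receptor gene Lhcgr, was called lower in both (-1.23 ± 0.18 and -1.19 ± 0.18, adjusted p = 0.0013 and 0.0015). Erythroid markers summed to 2600 to 6865 CPM in WT, 865 to 3943 in Ocn+/− and 1316 to 2517 in Ocn−/− testes, with none of 6 called. The 10 Sertoli cell markers summed to 1850.4 to 2029 CPM in WT, 1890.5 to 2216 in Ocn+/− and 1771 to 2688 in Ocn−/− testes, and 1 of them, Sox9, rose in both (0.92 ± 0.15 and 1.10 ± 0.15, adjusted p = 0.0031 and 0.00078). The 10 germ cell markers summed to 374 to 432 CPM in WT, 347 to 404 in Ocn+/− and 353 to 383 in Ocn−/− testes, with none of the 9 tested called. Smooth muscle markers (5 genes) and macrophage markers (7 genes) had 0 and 1 called in Ocn+/− and none in Ocn−/− testes. The 1 called was the macrophage marker Cx3cr1, which was higher (1.54 ± 0.30, adjusted p = 0.0079). No marker of these lists was at 0 in every testis library. The part of these shifts in the levels of the replication and division genes was not tested.

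In the forebrain the markers of dividing cells were read in the same way. The 8 markers of radial glia, the stem cells of the forebrain, summed to 943 to 970.4 CPM in WT, 1019.5 to 1061 in Ocn+/− and 924 to 1146 in Ocn−/− mice, with none called. The 5 markers of intermediate progenitors summed to 82.1, 95.3 and 123 CPM in WT, with WT 3 the highest, 68.6 to 77.6 in Ocn+/− and 64.1 to 74.3 in Ocn−/− mice. Of the 4 tested, Insm1 was lower in both mutants (-0.83 ± 0.18 and -0.86 ± 0.18, adjusted p = 0.026 and 0.019) and Sstr2 in Ocn+/− (-0.51 ± 0.12, adjusted p = 0.027). Olig1, among 5 markers of oligodendrocyte precursors, rose in both (0.42 ± 0.11 and 0.39 ± 0.11, adjusted p = 0.036 and 0.045). Markers of erythroid cells (3 of 6 in Ocn+/−, 1 in Ocn−/−) and of endothelial cells (2 and 1 of 6) were also called lower. Among macrophage and microglia markers Cx3cr1 alone was called, as higher in both mutants (0.84 ± 0.17 and 0.91 ± 0.17, adjusted p = 0.011 and 0.0058). Cx3cr1 was still called in both without WT 3 (0.64 and 0.72, adjusted p = 0.041 and 0.024). Without WT 3 Insm1 (-0.62 and -0.65, adjusted p = 0.080 and 0.065), Sstr2 (adjusted p = 0.10) and Olig1 (adjusted p = 0.15 and 0.19) were not called, and of the erythroid and endothelial markers Hba-a1 and Hba-a2 were, in Ocn+/−. The part of these markers in the levels of the members was not tested.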

How the data were processed

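The authors trimmed poly-A reads of a kit that does not mark strand (Trim Galore 0.6.6), aligned them with STAR 2.7.8a to GRCm39 and deposited RSEM 1.3.3 expected counts per gene. These were rounded to whole numbers here. Identifiers were matched to GENCODE M39; the release used by the authors is not given in the sources used here. The main test was edgeR 4.0.16 (R 4.3.3): filterByExpr, TMM, robust quasi-likelihood fit of 3 genotypes within an organ, and 1 joint fit for comparisons between organs, two-sided, with Benjamini-Hochberg adjustment over all genes tested and a threshold of 0.05. Errors on log2 fold changes are standard errors. CPM values are TMM-normalised. Labels do not say which organs came from the same pup, nor that libraries are separate litters, so p-values measure the spread between these libraries. The members and lists were chosen with earlier results of these data known. All members were accounted for; values in every library were given for Mki67, Top2a, Pcna, Mcm2, Cdk1, Ccnb1 and E2f1, for up to 8 members per organ with the smallest adjusted p between genotypes and up to 6 for the organ difference, and up to 3 called genes per other list and organ were named; Cdc6, Pole, Pola1 and Bub1b were named after their values were seen. GC content and shared 50-base stretches were computed from GENCODE transcripts. Both fits were tested on simulated data. Alternatives were other scalings, filters and tests (DESeq2 1.42.0, likelihood ratio), only the 2 genotypes compared, a replicate block, each library left out and, added after the data were seen, offsets for GC content and length.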

Additional observations from a re-analysis of the deposited data

Results flagged for a closer look

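For 3 members the change in mutant testes differed from that in mutant forebrain by a direct test of the difference in 1 fit of both organs (edgeR, adjusted over 17800 genes). The difference, testes minus forebrain, was 1.00 on the log2 scale for Cdt1, 0.65 for Mcm7 and 0.73 for Uhrf1. The sign of each difference was positive under all 27 alternatives. The adjusted p of Cdt1 ranged from 0.0011 to 0.16 over them, that of Mcm7 from 0.0019 to 0.13 and that of Uhrf1 from 0.0018 to 0.23. Uhrf1 was no longer called under 14 of the 27, Cdt1 under 4 and Mcm7 under 3.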

How the results depend on the processing

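The number of members called in Ocn+/− testes (13) stayed within 1.5 times of that under the other scalings, filters and tests, and was 5 with the GC content offset and the replicate block together, where all genes gave 486 calls against 1350. In Ocn−/− testes (10) it was 16 when scaled by library size alone, 17 with DESeq2, 17 without the filter on low counts, and 16 with the offset for GC content or for GC content and length; the calls over all genes, 922 as reported, were 1153, 1323, 1763, 1403 and 1353 there. In Ocn−/− forebrain (0) it was 1 with library size alone, 1 with the GC content offset, 1 with GC content and length, and 2 each without the filter, with the likelihood ratio test, with the replicate block and with the GC content offset and the block together, while all genes gave 643 to 1502 calls against 780; the genes were Cdc20 and Cenpe. For the difference between organs (3) it was 6 with DESeq2, 6 without the filter, 5 with at least 10 counts in every library and 6 with the likelihood ratio test, with 1027, 1023, 618 and 948 calls over all genes against 526. With 1 library left out, the counts ranged from 0 to 16 in Ocn+/− testes, from 0 to 16 in Ocn−/− testes, from 0 to 1 in Ocn−/− forebrain, from 0 to 6 for the difference between organs and from 38 to 39 for WT testes against WT forebrain, and were 0 in the other comparisons. The calls over all genes ranged there from 118 to 2019 in Ocn+/− testes, from 85 to 1559 in Ocn−/− testes, from 189 to 919 in Ocn−/− forebrain, from 93 to 1070 for the difference between organs and from 11439 to 12762 for WT against WT; the 16 members came with 2019 in Ocn+/− and with 1185 in Ocn−/− testes, both without testis Ocn+/− 2. Where 1 WT testis was left, it was assumed to vary like the other groups. The replicate numbers did not pair the samples: deviations of same-numbered libraries correlated between -0.094 and 0.087 in testes and between -0.037 and 0.15 in forebrain. With the number as a block 11 and 10 members were called in Ocn+/− and Ocn−/− testes and 2 for the difference between organs, with 966, 836 and 365 calls over all genes against 1350, 922 and 526. Scaling by library size alone moved the median of all genes to 0.11 in Ocn−/− forebrain and to 0.08 and 0.07 in Ocn+/− and Ocn−/− testes. Relative to that shift the S phase medians were 0.07, 0.41 and 0.41. Under it the share of called genes that were higher rose from 47.2% to 68.2% in Ocn+/− testes, from 45.1% to 65.2% in Ocn−/− testes, from 31.0% to 47.7% in Ocn+/− forebrain and from 37.2% to 64.5% in Ocn−/− forebrain. The 2 WT testes limit the comparisons with WT in that organ, and member counts down to 13 limit those in forebrain.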
